A study of Mus musculus with 25 samples.

Results

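The 25 gastrocnemius muscles of the series were ranked by the level of Fos, and the 8 mice with the highest Fos were compared with the 8 mice with the lowest, so that 16 of 25 mice entered the comparison and 9 stood between the groups. The mice were chosen by their Fos values, in log2 CPM (CPM is reads per gene scaled to the size of the library), and Fos itself was therefore described but not tested. All animals were male SAMP8 mice, an inbred senescence-accelerated strain, 8 months old when treatment began. For 3 months 14 mice were gavaged on 5 days of each week with thymol at 20 mg/kg per day in corn oil. The 11 control mice received the oil alone. RNA of the whole muscle was profiled by QuantSeq, a protocol that reads the 3′ end of each transcript, with 1 library per mouse. The high-Fos group held 5 control and 3 thymol mice and the low-Fos group held 3 control and 5 thymol mice, so treatment was a covariate in each comparison. Which genes go with Fos whatever the treatment was the question asked.

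Fos is the best known of the immediate-early genes, which are transcribed within minutes of a stimulus without new protein synthesis. Its protein pairs with Jun family members to form the transcription factor AP-1. In skeletal muscle, contraction, stretch, injury and adrenergic or calcium signals are known to induce it, through serum response factor (SRF) at CArG boxes and through CREB at cAMP response elements. Egr1, Junb, Atf3, Nr4a1 and Klf2 belong to the same early class, and phosphatases such as Dusp1 and RNA-decay or antiproliferative factors such as Zfp36 and Btg2 are induced with them and shut the response down.

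The promoters shown here are those of Fos, which ranked the mice, and of Dusp1, Btg2 and Dusp8, the 3 feedback regulators with the smallest p. RefSeq sequences on GRCm38.p6 are given for the 250 bases before each transcription start, 5′ to 3′ on the strand of the gene. Capitals mark the full cAMP response element TGACGTCA in Dusp1, Btg2 and Dusp8. In Fos they mark the 5-letter run TGACG, because its searched window held none of the 3 motifs searched. Sequence farther upstream was not searched, so a CArG box or other motif there would be missed. The windows are chr12:85473640-85473889 on the plus strand for Fos, and chr17:26508473-26508722 for Dusp1, chr1:134079156-134079405 for Btg2 and chr7:142095285-142095534 for Dusp8, each on the minus strand.
Fos: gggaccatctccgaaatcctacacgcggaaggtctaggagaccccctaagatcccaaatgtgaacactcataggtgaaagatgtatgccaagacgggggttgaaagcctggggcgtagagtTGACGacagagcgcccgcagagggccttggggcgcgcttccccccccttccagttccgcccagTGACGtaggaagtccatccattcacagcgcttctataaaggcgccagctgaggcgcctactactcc
Dusp1: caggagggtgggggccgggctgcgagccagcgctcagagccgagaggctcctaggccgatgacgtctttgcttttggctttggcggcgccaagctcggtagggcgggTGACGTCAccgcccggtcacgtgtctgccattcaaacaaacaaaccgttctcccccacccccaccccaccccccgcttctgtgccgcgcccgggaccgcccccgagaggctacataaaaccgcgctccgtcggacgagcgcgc
Btg2: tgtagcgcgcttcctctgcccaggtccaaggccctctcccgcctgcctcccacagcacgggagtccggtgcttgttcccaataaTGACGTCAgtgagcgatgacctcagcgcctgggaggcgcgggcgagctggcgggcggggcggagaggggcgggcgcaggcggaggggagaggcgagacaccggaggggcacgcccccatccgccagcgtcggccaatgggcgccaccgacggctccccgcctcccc
Dusp8: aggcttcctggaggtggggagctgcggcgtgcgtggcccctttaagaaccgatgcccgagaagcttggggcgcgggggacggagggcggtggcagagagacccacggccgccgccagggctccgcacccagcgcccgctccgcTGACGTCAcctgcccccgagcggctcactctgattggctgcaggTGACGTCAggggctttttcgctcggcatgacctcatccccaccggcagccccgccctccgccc
The Dusp1 element began 143 bases before the start, the Btg2 element 166 bases before it, and Dusp8 held the element at both 107 and 63 bases before its start. Each window that was searched held 300 bases, 250 before the start and 50 after it, and both strands were read. TGACGTCA was found in 6 of the 27 feedback regulators with a promoter in the RefSeq table (22.2%), in 0 of 14 of the AP-1 and Egr factors, and in 263 of all 7049 genes of the muscle table that matched a promoter by symbol (3.73%). Besides the 3 printed, its holders were Ppp1r15a, Plk2 and Errfi1, whose log2 differences (high-Fos minus low-Fos) were 0.25, 0.10 and -0.09. None of these was at an unadjusted p under 0.05. Klf2 (0.68) and Nr4a3 (1.03) lacked the element. Among genes at an unadjusted p under 0.05 it was in 11 of 227 that were higher in the high-Fos mice (4.85%) and in 6 of 257 that were lower (2.33%), and among the 12 higher and 12 lower genes with the smallest p in 1 of 9 and 0 of 9 with a promoter. Neither of the other motifs was in the promoters printed. TGACTCA, the AP-1 site, was in 0 of 27 and 0 of 14 promoters and in 4.24% of all 7049, and a CArG box was in 2 of 27, in 1 of 14 and in 1.76% of all. TGACG alone, which any TGACGTCA contains, was in 37.6% of all promoters. A match describes the letters of the window and does not show a site in use.

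Fos was low in every muscle. In the high-Fos mice it ranged from 2.66 to 3.68 log2 CPM with a median of 3.37 (44 to 97 reads), in the 9 middle mice from 2.01 to 2.56 with a median of 2.20 (29 to 36 reads), and in the low-Fos mice from -1.33 to 2.01 with a median of 1.23 (1 to 34 reads). Read numbers were worked back from the step size of the deposited values. The means were 3.20 ± 0.42 (SD, n = 8) and 0.94 ± 1.07 (SD, n = 8). At the upper boundary control 31 stood inside at 2.66 and control 18 outside at 2.56, and at the lower one thymol 3 stood inside with 20 reads, or 3.75 CPM (exact Poisson 95% interval 2.29 to 5.79), and control 10 outside with 33 reads, or 3.77 CPM (2.60 to 5.30). These intervals cover counting error only and overlap, so which of these mice fell in a group was not settled by the counts. Control 19, with 1 Fos read at a depth of 7278397, lay far below the other low-Fos mice, with an upper bound of 0.725 CPM.

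**Figure D1:**
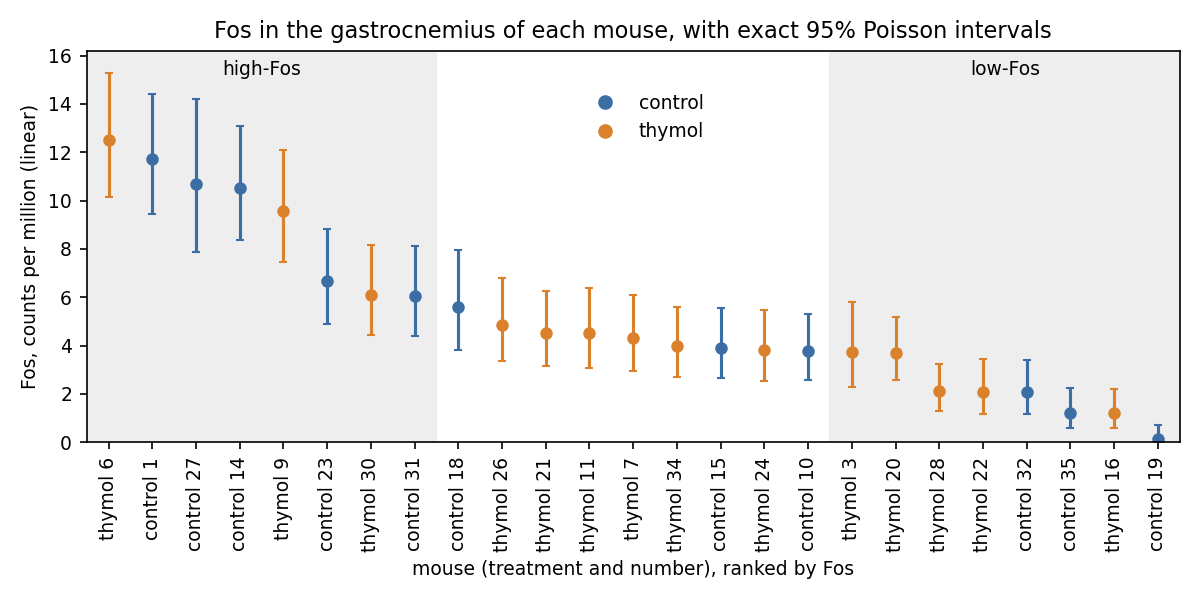
Fos in CPM on a linear axis for each of the 25 mice, ranked from highest to lowest, with exact 95% Poisson intervals. The shaded blocks are the 8 high-Fos and the 8 low-Fos mice, blue points are control and orange points thymol, and the intervals of the mice on either side of each boundary overlap.

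The libraries held 4463818 to 9463418 reads on the 8829 genes of the table, with a median of 7503259. The log2 depth (mean 22.7 in the high-Fos and 22.9 in the low-Fos mice, exact permutation p = 0.258), the share of reads on mitochondrial genome genes (26.6% and 26.7%, exact permutation p = 0.906) and the share on the 10 most abundant genes (42.7% and 43.2%, exact permutation p = 0.641) did not pass the two-sided test. The library number in the labels was lower in the high-Fos mice (60 to 75, mean 67.2) than in the low-Fos mice (67 to 83, mean 75.8; exact permutation p = 0.018, 0.0721 after Benjamini-Hochberg adjustment over the 4 measures). The labels do not say what this number marks. All 12 markers of skeletal muscle were measured, with a sum of 162400 to 217500 CPM in the high-Fos and 178200 to 206700 CPM in the low-Fos mice.

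No gene passed the test between the groups, and Egr1, an immediate-early factor often read beside Fos, differed by -0.02 (log2, high-Fos minus low-Fos). Of the 8828 genes tested besides Fos, 0 were called higher (0%) and 0 lower (0%) at an adjusted p under 0.05 (limma with Benjamini-Hochberg adjustment over all genes tested), and the smallest adjusted p was 0.683. At an unadjusted p under 0.05, 278 genes were higher (3.15%) and 330 lower (3.74%). With limma's voom on the recovered reads the calls were again 0, with 296 higher and 367 lower at an unadjusted p under 0.05. Values below are therefore descriptions of differences that did not pass the test, except where Fos was used as a continuous measure.

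Egr1, a zinc finger factor induced by the same SRF route as Fos, measured 2.51 to 3.89 log2 CPM in the high-Fos mice with a median of 3.03, and 2.87 to 3.88 in the low-Fos mice with a median of 3.15. The groups overlapped, with 4 high-Fos mice below every low-Fos mouse and 1 above every one. Thymol 6, first of all mice in Fos, had the lowest Egr1 of the high-Fos group at 2.51, and control 10, a middle mouse, had the highest Egr1 of all 25 at 4.01. The difference was -0.02 (standard error 0.22, adjusted p = 0.99 with limma and Benjamini-Hochberg).

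Junb, a Jun family partner of Fos that often opposes Jun, measured 3.30 to 4.76 log2 CPM in the high-Fos mice (median 3.92) and 3.23 to 4.32 in the low-Fos mice (median 3.60). Control 1, thymol 9 and control 14 were above every low-Fos mouse, whereas the other high-Fos mice lay within the range of the low-Fos mice. The difference was 0.37 (standard error 0.20, adjusted p = 0.75 with limma and Benjamini-Hochberg), and it was 0.09 with the library number as a covariate. Jun and Jund, which form AP-1 with Fos, differed by 0.05 (standard error 0.13) and 0.21 (standard error 0.14), and Fosl2, a Fos family member, by 0.14 (standard error 0.16) and by 0.05 without control 32. The 5 measured members of the Fos, Jun and Egr families thus spanned -0.02 to 0.37, and each overlapped between the groups.

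Of the 28 genes written in the list of AP-1 and Egr immediate-early factors, 16 were measured without Fos. Their median difference was 0.19, against -0.004 over all genes tested, and 13 were above 0, where 48.9% of all genes were. At an unadjusted p under 0.05, 1 was higher and 0 lower, where 3.15% and 3.74% of all genes were. The higher gene was Klf2, a factor responsive to shear and calcium signals, at 4.66 to 6.08 log2 CPM with a median of 5.33 in the high-Fos mice and 3.28 to 5.51 with a median of 4.63 in the low-Fos mice (difference 0.68, standard error 0.29). All 8 high-Fos mice were above the low-Fos median and 4 were above every low-Fos mouse. The nuclear receptors Nr4a1 and Nr4a3, both induced by exercise and adrenergic signals, differed by 0.37 (standard error 0.19) and 1.03 (standard error 0.51). Nr4a1 was at 0.24 without thymol 9. Nr4a3 rested on 4 to 86 reads in the high-Fos mice and 4 to 44 in the low-Fos mice. Atf3, a stress-induced partner of Jun, differed by 0.28 (standard error 0.46) and by 0.02 without thymol 6.

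The feedback regulators held the gene with the smallest p of all genes higher with Fos. Dusp1, the phosphatase that inactivates MAP kinases, measured 4.89 to 6.30 log2 CPM in the high-Fos mice with a median of 5.69, and 4.29 to 5.61 in the low-Fos mice with a median of 4.91. Of the high-Fos mice, 5 were above every low-Fos mouse, and thymol 16, at 4.29, had the lowest Dusp1 of all 25 mice. The difference was 0.80 (standard error 0.19, adjusted p = 0.683 with limma and Benjamini-Hochberg), and it lay between 0.705 and 0.936 in every alternative run.

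Btg2, an antiproliferative factor that p53 also induces, measured 2.56 to 4.32 log2 CPM in the high-Fos mice (median 3.63) and 2.40 to 3.06 in the low-Fos mice (median 2.86). Of the high-Fos mice, 6 were above every low-Fos mouse, and thymol 9 and control 31 were below the low-Fos median. The difference was 0.69 (standard error 0.23). Dusp8, a phosphatase of stress-activated kinases, ran from 4.59 to 5.14 with a median of 4.98 against 4.29 to 4.98 with a median of 4.64 (difference 0.26, standard error 0.11). These 3 genes, whose promoters are printed above, were the members of the feedback list that were higher at an unadjusted p under 0.05, among 29 measured of 39 written, with 0 lower, where 3.15% of all genes were higher and 3.74% lower. The median of the list was 0.06, and its members ran from -0.62 for Gadd45b, a growth-arrest gene, to 0.80 for Dusp1. Gadd45b was at -0.31 without thymol 6.

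**Figure D2:**
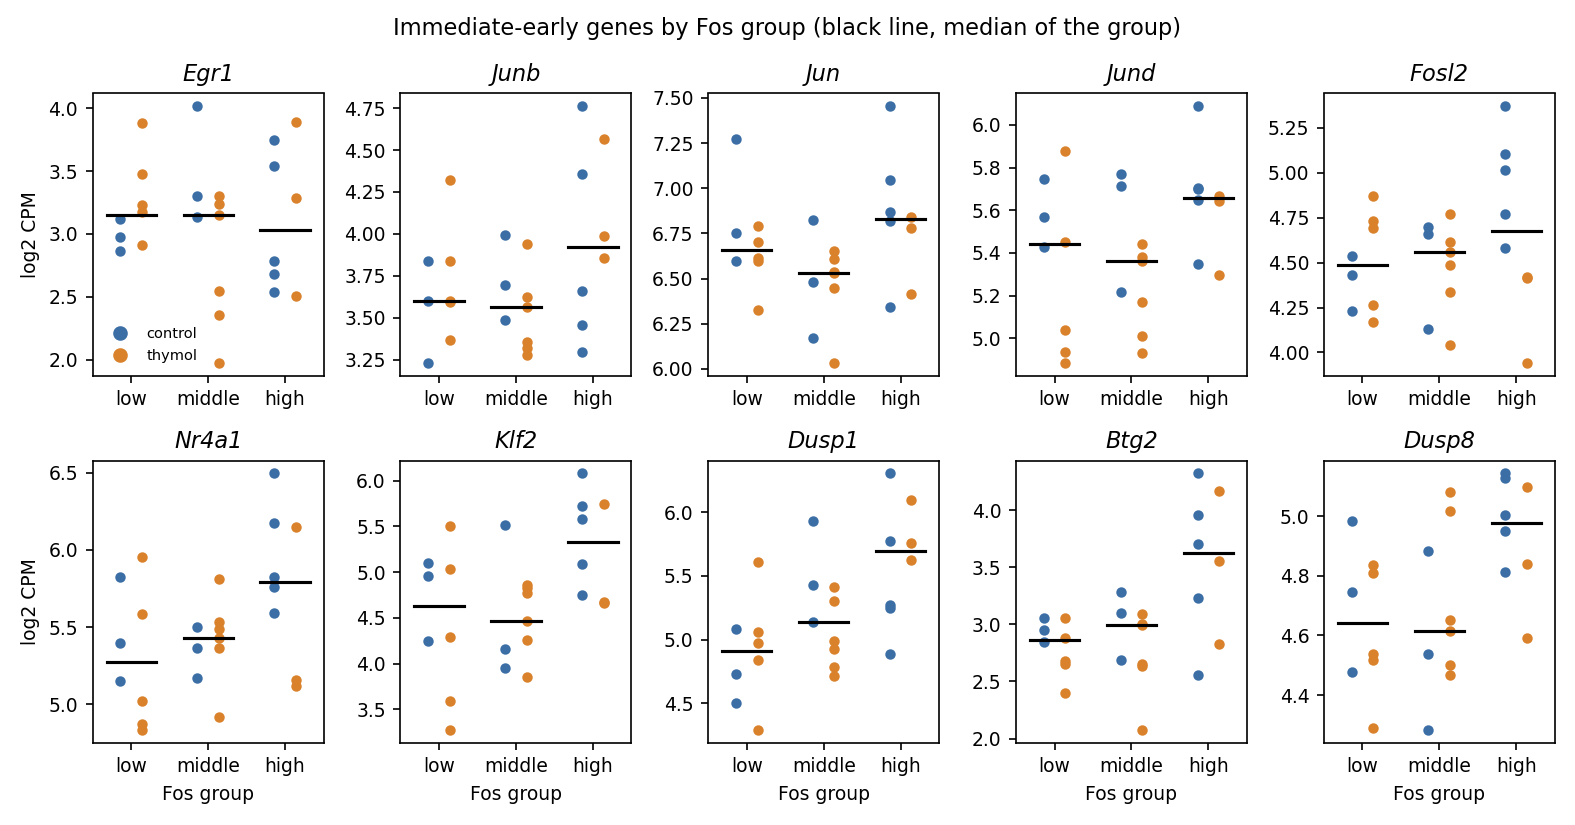
Log2 CPM of 10 immediate-early genes in the low-Fos (8), middle (9) and high-Fos (8) mice, with 1 point per mouse, blue for control and orange for thymol, and a black line at the median of the group. Egr1 has medians of 3.15 and 3.03 in the low-Fos and high-Fos mice, with 4 high-Fos mice below every low-Fos mouse, and the Dusp1 medians are 4.91 and 5.69.

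With Fos as a continuous measure over all 25 mice and treatment as a covariate, 1 of 8828 genes passed (0.0113%), and that gene was Dusp1. It rose by 0.33 log2 units for each log2 unit of Fos (standard error 0.06, adjusted p = 0.0424 with limma and Benjamini-Hochberg). At an unadjusted p under 0.05, 431 genes went up with Fos (4.88%) and 408 went down (4.62%). Egr1 had a slope of 0.02 (standard error 0.09), Junb of 0.12 (standard error 0.07), Klf2 of 0.27 (standard error 0.10) and Btg2 of 0.24 (standard error 0.08), none of them past the adjusted threshold. Of the 16 AP-1 and Egr factors 1 went up and 1 went down at an unadjusted p under 0.05, and of the 29 feedback regulators 2 and 2.

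The call of Dusp1 stood near its threshold. When each of the 25 mice was left out in turn, 9 fits called Dusp1 and 16 called no gene, while its slope stayed between 0.30 and 0.40 and its adjusted p ran from 0.00894 to 0.222 (limma, Benjamini-Hochberg). The adjusted p was highest without thymol 6, and without control 19, the mouse with 1 Fos read, it was 0.12 at a slope of 0.40. With the library number as a covariate it was 0.0751, and with the rank of Fos in place of its level 0.12.

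**Figure D3:**
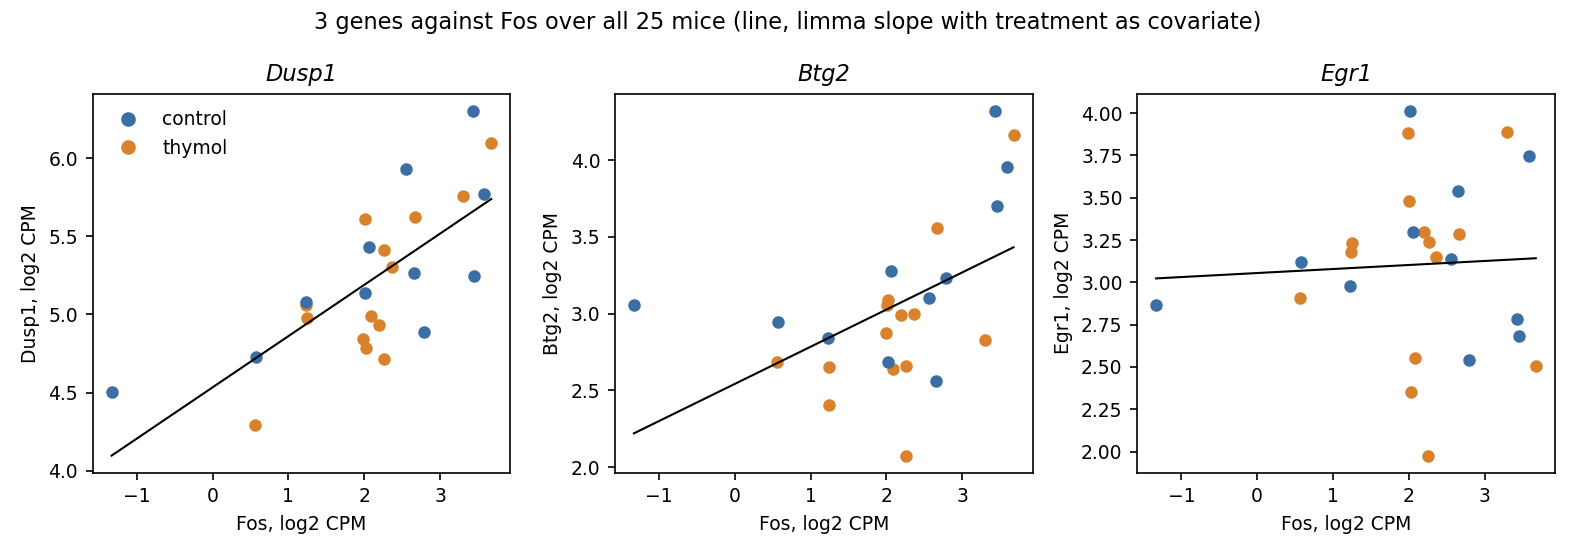
Log2 CPM of Dusp1, Btg2 and Egr1 against log2 CPM of Fos, 1 point per mouse (25 mice, blue control, orange thymol), with the limma slope drawn through the mean. The slopes are 0.33 for Dusp1, 0.24 for Btg2 and 0.02 for Egr1, and control 19 is the single point far to the left.

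Genes known to respond to cAMP and CREB had the highest median among the lists of signalling and stress genes. Of 22 written, 19 were measured, with a median difference of 0.22, and 5 were higher and 0 lower at an unadjusted p under 0.05, where the share among all genes was 3.15% higher. With Fos as a continuous measure 2 went up and 0 down at the same threshold (4.88% and 4.62% of all genes). Those given here were named after their values were seen. Beside Dusp1 they were Irs2, the insulin receptor substrate (0.70), Creb5, a CREB family factor (0.33), and Ppargc1a, the coactivator of mitochondrial biogenesis (0.26). Irs2 measured 4.33 to 6.08 log2 CPM in the high-Fos mice (median 5.46) and 4.11 to 5.27 in the low-Fos mice (median 4.62), and 5 high-Fos mice were above every low-Fos mouse. The cAMP list shares Nr4a1, Nr4a3 (1.03) and Atf3 with the AP-1 and Egr list. It shares Dusp1 (0.80), Per1 and Sik1 with the feedback list, so its median is not separate from theirs.

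Genes of muscle contraction and strain gave 4 higher and 0 lower of 21 measured at an unadjusted p under 0.05, where 3.15% of all genes were higher, with a median of 0.06. With Fos as a continuous measure 0 went up and 1 down. The 4 genes were Otud1, a deubiquitinase (0.72), Ccn2, the matricellular growth factor also called CTGF (0.53), Smtnl1, a smoothelin-like contractile regulator (0.36), and Ppargc1a, which the cAMP list also holds. Of the 7 matricellular genes measured, Ccn2 was the 1 that was higher, and Adamts1, a secreted protease, differed by 0.26 (standard error 0.13), with control 19 at 5.40 above all high-Fos mice. The SRF and MRTF cytoskeletal targets had a median of -0.08 over 13 genes, with 0 higher and 1 lower (3.74% of all genes were lower), Tagln (-0.49), an actin-binding protein of smooth muscle. Against Fos over all 25 mice 1 of the 13 went up and 0 down. Flna, which cross-links actin, differed by -0.30 (standard error 0.15) and by -0.19 without thymol 9.

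The medians of the stress lists lay between -0.10 and 0.09. Higher and lower in these lists mean an unadjusted p under 0.05, which 3.15% of all genes reached in the higher and 3.74% in the lower direction. Heat-shock genes had a median of 0.07 over 25 members with 2 higher, the Hsp40 co-chaperones Dnajb5 (0.27) and Dnajb4 (0.29), and endoplasmic reticulum stress genes a median of 0.09 over 21 with 2 higher, Pdia6 (0.19) and the chaperone Hspa5 (0.20, and 0.12 without thymol 6). Of 15 NF-kB genes 1 was higher, the mitochondrial superoxide dismutase Sod2 (0.25), with a list median of -0.02, and Ikbkb, the kinase of the pathway, differed by -0.25. Glucocorticoid responsive genes had a median of -0.10 over 23, with the transcription factor Cebpb higher (0.43) and Fkbp5, a cochaperone of the glucocorticoid receptor, lower (-0.55), and Fkbp5 stood at -0.27 without control 19. The median of the glucocorticoid list was -0.38 within control and 0.01 within thymol mice, and with Fos as a continuous measure 0 of its 23 members went up and 8 down at an unadjusted p under 0.05 (4.62% of all genes went down). Among 18 C/EBP, STAT3 and interleukin 6 genes, Cebpb and Cebpg (0.21) were higher and Cebpa (-0.86) and Fgl2 (-0.41) lower, with a median of 0.01. Clock genes (median -0.03 over 20) had Clock itself higher (0.25), and Per3 differed by -0.27 (-0.16 without thymol 6). Hypoxia genes (median 0.06 over 21) had the vasodilator peptide gene Adm lower (-0.47, with -0.87 within control and -0.06 within thymol mice, and -0.28 without control 19), and Egln3, an oxygen-sensing hydroxylase, differed by 0.40. The p53 and growth arrest list (median -0.06 over 14) had Btg2 higher, and Trp53inp1, a p53-induced nuclear protein, differed by -0.42 (-0.23 without control 19). Over all 25 mice, with Fos as a continuous measure, 1 of the 14 went up and 5 down. Of the other stress lists the same measure gave 4 up and 0 down for endoplasmic reticulum stress, 1 and 0 for heat shock, 1 and 2 for each of the NF-kB, C/EBP and hypoxia lists, and 0 and 1 for the clock.

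**Figure D4:**
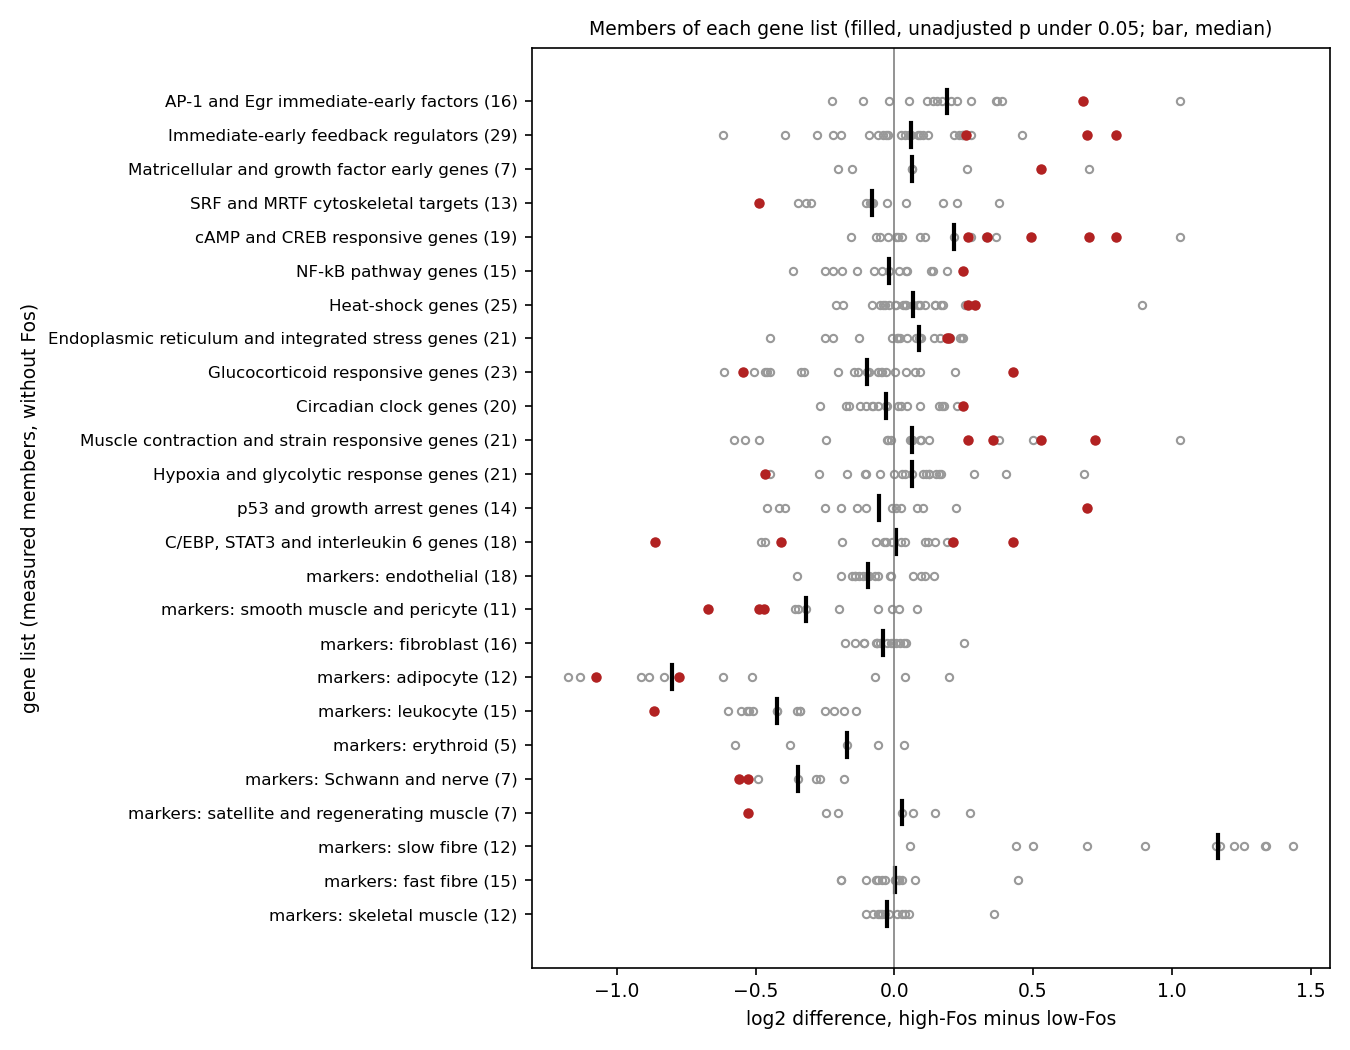
Log2 difference (high-Fos minus low-Fos, limma with treatment as covariate) of each measured member of the 14 functional and 11 marker lists, with 1 circle per gene, filled where the unadjusted p is under 0.05, and a bar at the median. The cAMP and AP-1 lists have medians of 0.22 and 0.19, and the slow fibre and adipocyte markers are the most displaced, at 1.17 and -0.80.

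Over the whole table, the 24 genes with the smallest p, 12 higher and 12 lower, differed by -0.99 to 0.80. The lowest p of all belonged to Plcb4, a phospholipase C that couples receptors to calcium release, at 4.37 to 4.84 log2 CPM in the high-Fos mice (median 4.58) and 4.77 to 5.26 in the low-Fos mice (median 4.97). Of the high-Fos mice, 7 were below every low-Fos mouse, and the difference was -0.43 (standard error 0.10, adjusted p = 0.683 with limma and Benjamini-Hochberg). Usb1, which trims the U6 spliceosomal RNA, was the 1 gene of the 24 without overlap, at 2.72 to 3.11 in the high-Fos mice and 1.91 to 2.58 in the low-Fos mice. Over all genes tested 2 did not overlap (0.0227%), Usb1 and Ltbp3, a binding protein of latent TGF-beta with a difference of -0.28.

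The other genes in the direction of Fos were Slc6a8, the creatine transporter (0.38), Clns1a, an assembly factor of spliceosomal particles (0.37), 1110002E22Rik (0.43), Pmpca, the mitochondrial processing peptidase (0.30), Fkbp3, a nuclear prolyl isomerase (0.23), Pla2g12a, a secreted phospholipase (0.50), Maea, a ubiquitin ligase subunit (0.32), and Pigyl, of the GPI-anchor pathway (0.35). Also among them were the respiratory chain subunits Ndufc2 of complex I (0.25) and Cox7c of complex IV (0.39). All 8 high-Fos mice were above the low-Fos median for 9 of the 12 genes, and 7 of 8 were for Dusp1, Maea and Pigyl. The choice of these genes by their p over the same mice favours such counts.

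Against Fos went Atg16l1, which directs LC3 lipidation in autophagy (-0.53), Ptgs1, the constitutive cyclooxygenase (-0.96), Cgnl1, a junction protein (-0.75), Lcp1, an actin bundler of leukocytes (-0.99), and Klf5, a zinc finger factor (-0.53). With them were Arhgap17, a GTPase activator (-0.59), Penk, the enkephalin precursor (-0.53), Mrtfb, a coactivator of SRF (-0.41), Xpa, of nucleotide excision repair (-0.65), Sh3d19 (-0.70) and Pcgf2, of the Polycomb group (-0.83). Ptgs1 had the widest range of the 24 genes among the high-Fos mice, from 0.57 to 2.58 log2 CPM against 2.24 to 3.06 in the low-Fos mice, and its difference was -0.75 without thymol 30. Of the 65 genes selected for naming, 31 overlap a gene on the other strand in GENCODE M21, Dusp1 (overlapped by Ergic1) and Junb (by Prdx2) among them. The GENCODE span of Dusp1 (chr17:26505590-26562128, minus strand) reaches far upstream of its RefSeq start, which lies next to base 26508473. Where in that span Ergic1 lies was not examined. The strand setting of the counting is not given in the sources used here, and whether such pairs share reads was not tested.

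Within each treatment, taken from a fit of 4 groups, 0 genes were called in control mice (0%, 5 high-Fos against 3 low-Fos mice) and 0 in thymol mice (0%, 3 against 5). Of the 8828 genes tested, 673 and 366 were at an unadjusted p under 0.05 (limma), where the 16 mice together gave 608 (6.89%). All 24 genes above had the same sign within control and within thymol mice, which the selection on the 16 mice together favours. Dusp1 differed by 0.73 in control and 0.87 in thymol mice, Klf2 by 0.67 and 0.69, Btg2 by 0.60 and 0.78, Junb by 0.35 and 0.39, and Egr1 by 0.07 and -0.11. Leaving out control 23 called 1 gene within control mice, Mbp. Leaving out thymol 9 called 1 gene within thymol mice, Rcan1, a calcineurin inhibitor that calcineurin itself induces. With all mice Rcan1 differed by 0.99 within thymol and by -0.03 within control mice.

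The interaction of Fos group and treatment gave 0 calls (0%), a smallest adjusted p of 0.973 (limma with Benjamini-Hochberg) and 375 of the 8828 genes at an unadjusted p under 0.05. The 3 smallest p belonged to Mbp, the myelin basic protein (-1.29 in control and 0.31 in thymol mice), Pde4a, a cAMP phosphodiesterase (0.46 and -0.45), and Slc41a3, a magnesium transporter (0.57 and -0.22). Each has opposite signs in the treatments, and none passed the test of that difference.

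**Figure D5:**
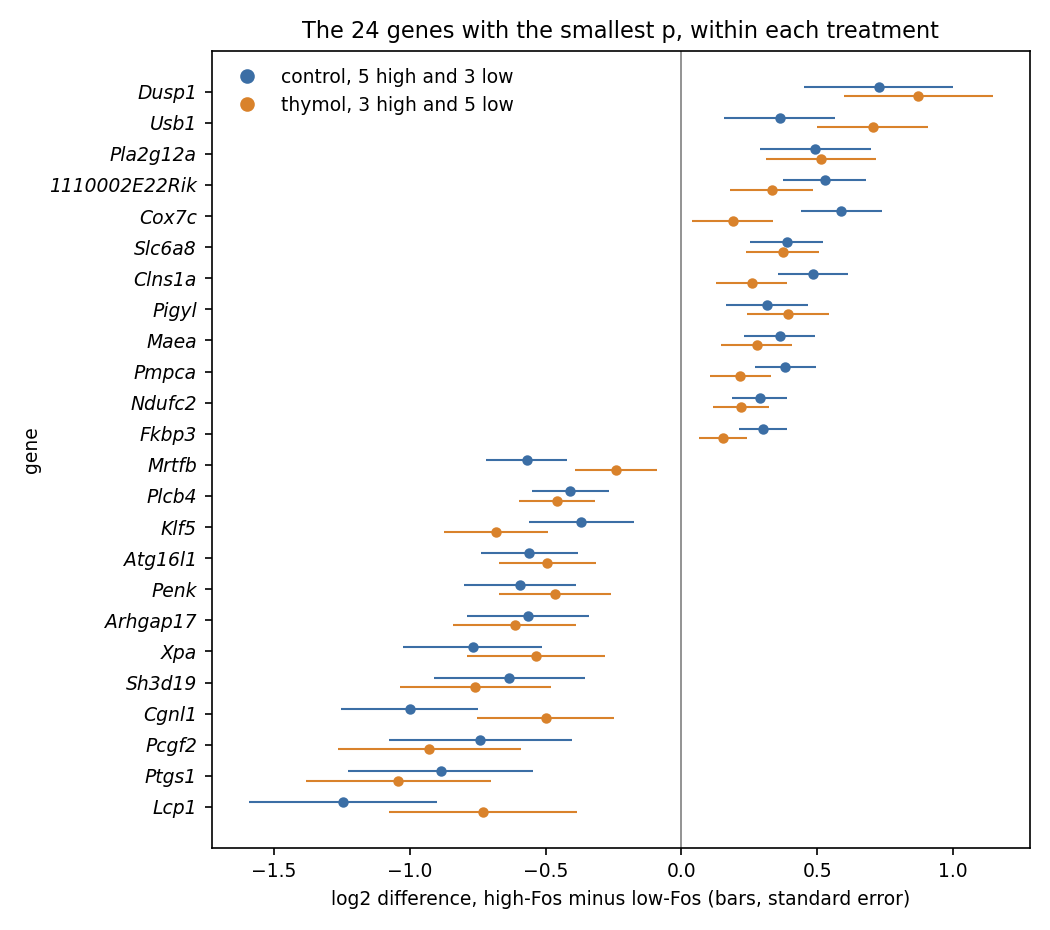
Log2 difference (high-Fos minus low-Fos) of the same 24 genes within control (blue, 5 against 3 mice) and within thymol mice (orange, 3 against 5), with standard errors from the limma fit of 4 groups. All 24 genes lie on the same side of 0 in both treatments, and Dusp1 is at 0.73 and 0.87.

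In the 9 mice that belonged to neither group, 3 of the 12 genes higher with Fos had a positive correlation with Fos, Dusp1 and Usb1 among them, where 49.9% of all genes did. Of the 12 lower genes 3 had a negative correlation, where 50.1% of all genes did. Fos varied little among these mice, from 2.01 to 2.56 log2 CPM. The mean of the middle mice lay between the means of the outer groups for 12 of 12 and 11 of 12 genes. Choosing these genes for their difference between the outer groups favours such a position, and the share over all genes was not counted.

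No marker of another cell type passed the adjusted test, and in whole muscle fewer cells of a type and less RNA per cell cannot be told apart. Adipocyte markers (12 of 15 measured) had a median of -0.80 with 2 lower and 0 higher at an unadjusted p under 0.05 (3.74% and 3.15% of all genes), and summed to 2533 to 4853 CPM in the high-Fos and 2638 to 6819 CPM in the low-Fos mice. Their median was -1.65 within control and 0.19 within thymol mice. Adiponectin (Adipoq) itself differed by -1.17 (standard error 0.64) and by -0.72 without control 19. In thymol 3 Adipoq stood at 1.44 log2 CPM while the adipocyte markers summed to 11.4 log2 CPM. These sums therefore say little about Adipoq. The members above 0 were Lpl (0.20) and Car3 (0.04). Leukocyte markers (15 of 23) had a median of -0.42, all 15 below 0 and 1 lower, with sums of 160 to 271 CPM and 165 to 526 CPM. Schwann cell and nerve markers (7 of 14) had a median of -0.35, all 7 below 0 and 2 lower, among them the adhesion molecule Ncam1 (-0.53), with sums of 100 to 182 CPM and 132 to 308 CPM. Of all genes tested 48.9% were above 0.

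Smooth muscle and pericyte markers (11 of 12) had a median of -0.32, with 3 lower and 0 higher at an unadjusted p under 0.05 (3.74% and 3.15% of all genes). These were Tagln, the smooth muscle myosin Myh11 (-0.67, standard error 0.21) and the pericyte channel Kcnj8 (-0.47). The sum of the list, 3426 to 3964 CPM in the high-Fos and 3090 to 4205 CPM in the low-Fos mice, overlapped. Myh11 had medians of 5.29 and 6.09 log2 CPM and Tagln of 3.53 and 4.04, a small part of this sum. Its overlap therefore does not describe these genes. Slow fibre markers (12 of 12) were all above 0, where 48.9% of all genes were, with a median of 1.17. At an unadjusted p under 0.05 there were 0 of them, and they summed to 1068 to 10560 CPM against 326 to 6081 CPM. Myh7, the slow myosin, ran from 6.62 to 10.1 log2 CPM in the high-Fos mice and from 1.68 to 9.29 in the low-Fos mice, and its difference of 1.34 (standard error 0.88) was -0.05 within control and 2.72 within thymol mice, and 0.69 without thymol 20. Endothelial (18 of 18, median -0.09), fibroblast (16 of 16, -0.04), erythroid (5 of 7, -0.17), satellite cell (7 of 13, 0.03, with 1 lower, Ncam1, which the nerve list also holds) and fast fibre markers (15 of 15, 0.000863) had 0 higher and, apart from Ncam1, 0 lower at an unadjusted p under 0.05. No marker counted here was under 1 CPM in all 16 mice. The part of these cell types in the differences of Dusp1, Btg2, Klf2 or Irs2 was not tested.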

How the data were processed

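QuantSeq 3′ libraries were aligned by the authors to GRCm38 (STAR 2.5.3). They counted reads with HTSeq 0.6.1, removed low genes, applied TMM scaling and deposited log2 CPM values for 8829 genes in 25 libraries, 1 per mouse. Their filter and scaling were taken as deposited. Groups came from the treatment in the labels and, for high and low Fos, from the rank of Fos. The members and gene lists were chosen with earlier results of these data known. Whole reads (100.0% within 0.1 reads) were recovered with a prior of 2 reads at the mean library size. They give the depths and counting intervals printed and have no molecular identifiers.

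The main test was limma 3.58.1 (R 4.3.3) on the log2 values over 16 mice, with treatment as covariate, a trended prior variance and two-sided p adjusted by Benjamini-Hochberg over 8828 genes at a threshold of 0.05, checked on simulated data. Contrasts within treatment and the interaction came from a fit of 4 groups. Lists and promoters (RefSeq) were described by counts, without a test. The library measures were compared by exact permutation over all 12870 splits (numpy 2.4.6). No pair of libraries agreed within sampling noise (lowest chi-square per degree of freedom 6.32 over 300 pairs). Positions are from GENCODE M21.

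Genes were named by a rule: Egr1 and Junb, the 12 smallest p in each direction, the Fos, Jun and Egr families, 2 genes of each other functional list, and the 3 smallest interaction p. These were 53 genes, and 12 more were added after their values were seen, as were the genes given as members past the threshold in a list. Alternatives were other group sizes, Fos as a continuous term, other scaling, a filter, voom, the library number or the first label number as a term, and leaving out each mouse. Some genes are not reported here.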

Additional observations from a re-analysis of the deposited data

Results flagged for a closer look

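In each group of 8 mice, a value was singled out when its gap to the nearest other mouse divided by the range of the group was above Dixon's 95% critical value. Of 130 groups examined, over 65 genes, 5 were singled out, and chance gives about 1 in 20.

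Control 19 accounts for 2 of them, both in the low-Fos group. Its Adamts1, a secreted protease, was the highest at 5.398 log2 CPM (next 4.865), and its Trp53inp1, a p53-induced gene, the highest at 4.114 (next 3.262). Without this mouse the differences were 0.395 for Adamts1 and -0.233 for Trp53inp1.

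Pcgf2, of the Polycomb group, was lowest in thymol 16 at 1.547 log2 CPM (next 2.253) among the low-Fos mice. Myh11, the smooth muscle myosin, was lowest in thymol 20 at 5.061 (next 5.808) in the same group. Clu, the extracellular chaperone clusterin, was highest in thymol 30 at 5.558 (next 5.062) among the high-Fos mice. The causes of these values were not tested.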

How the results depend on the processing

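The counts of 0 higher and 0 lower genes held in the other 10 settings tried for the 16 mice or other group sizes and with each of the 16 mice dropped in turn (limma, Benjamini-Hochberg). With Fos as a continuous term 1 gene was called, Dusp1 (0.74 over the mean gap of the groups, adjusted p = 0.0424), and the smallest adjusted p elsewhere was 0.0922, for Clu, with 6 mice against 6. Genes at an unadjusted p under 0.05 numbered 448 to 839. The 448 came from the filter, with 6622 genes tested, and the 839 from the continuous term over all 25 mice, with 8828. The replicate block on the first label number, which 9 of the 16 mice share (consensus correlation -0.0423), gave 0 and 0 calls. That number is only shared and the labels give it no meaning.

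The continuous fit called 0 genes with the rank of Fos and 0 with the library number as covariate, and 0 to 1 without each mouse. Calls within control mice and within thymol mice each ran from 0 to 1 without each mouse (1 without control 23, Mbp, and 1 without thymol 9, Rcan1), and the interaction kept 0.

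The log2 difference of Egr1 changed sign with 6 against 6 mice (0.00825), the continuous term (0.0536), quantile normalization (0.00964) and the library number (0.0943), and ran from -0.15 to 0.148 without each mouse. The log2 difference of Jun changed sign with 6 against 6 (-0.0178) and the continuous term (-0.0787), and ran from -0.0121 to 0.142. The log2 difference of Pde4a ran from -0.112 to 0.133. The other 62 genes kept their sign in every fit. The causes were not tested. Fos itself was at 1 to 34 reads in the low-Fos mice, which limits how finely those mice can be ranked.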

Other observations

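Nuclear genes of oxidative phosphorylation, mostly subunits of respiratory complexes and ATP synthase, leaned toward the high-Fos mice. This list was formed after Ndufc2 and Cox7c were seen among the genes with small p, so its counts are a description. Its genes were matched by symbol, and it also holds related genes such as Atp5if1 (0.01), Ndufa4l2 (-0.19) and Cox7a2l (-0.13). Of 84 measured genes of the list, 76 were above 0, where 48.9% of all genes were, with a median difference of 0.11 against -0.004 over all genes. At an unadjusted p under 0.05, 17 were higher and 0 lower, where 3.15% of all genes were higher. With Fos as a continuous term over 25 mice, 44 of the 84 were higher and 1 lower at the same threshold, where 4.88% and 4.62% of all genes were. Control 19, with 1 Fos read, had the lowest Cox7c of all 25 mice, and no count without it is given here. The group difference of Cox7c was 0.39, and 0.32 without control 19. The summed level of the list was 24640 to 30240 CPM in the high-Fos mice and 19980 to 27430 CPM in the low-Fos mice. The median was 0.21 within control and 0.05 within thymol mice. Slow fibre markers had the opposite split, at 0.05 within control and 2.30 within thymol mice, and their part in these values was not tested. Complex III gave Uqcr11 (0.24) and Cyc1 (0.25), complex II Sdhc (0.25), and ATP synthase Atp5mc3 (0.24).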
